A study of Rattus norvegicus with 25 samples.

Results

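Genes that mark macrophages were followed through the esophageal epithelium of 25 male F344 rats. The 10 genes were Cd68, Csf1r, Cd163, Mrc1, Aif1, Adgre1, C1qa, C1qb, C1qc and Msr1, chosen by name and found on the array through the RefSeq accession of each probe. They are 10 of 15443 named genes on the array, and all 10 were among the 12343 genes bright enough to test. Their 12 probes, with a pair each for Csf1r and Aif1, were well above background on 25 of 25 arrays, so no level of these 10 genes is a bound.

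The rats formed 5 groups of 5, measured on 1-colour arrays, with 1 array per rat. The groups named NMBA+Alpha-T, NMBA+Delta-T and NMBA+Gamma enriched-T, here the alpha, delta and gamma-enriched rats, received N-nitrosomethylbenzylamine (NMBA), a nitrosamine that causes esophageal tumours in rats, together with alpha-tocopherol, delta-tocopherol or a tocopherol mixture enriched in the gamma form. NMBA rats received the carcinogen with no tocopherol, and Control rats received no carcinogen. The labels state no age, dose, route or time. All 25 animals share strain and sex, so nothing below extends to females or to other strains.

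Macrophages live in most tissues, where they engulf dead cells and microbes, present antigen and release cytokines. In the esophageal wall they are found mainly in the connective tissue under the squamous epithelium, and monocytes from the blood add to them when the tissue is injured. Survival of the lineage depends on the receptor encoded by Csf1r, and its development on the transcription factor PU.1, encoded by Spi1. Macrophages are also a main source of C1q, the recognition molecule that starts the classical complement pathway and binds dying cells.

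The C1q chains are encoded side by side: in the rat annotation C1qb, C1qc and C1qa are consecutive coding genes on chromosome 5. The 250 bases before the annotated start are shown from RefSeq (assembly GRCr8) for C1qa and C1qb, whose signals rose and fell together from rat to rat, and for Cd68, which varied closely with C1qb. Such windows were at hand for 7 of the 10 genes, namely Cd68, Csf1r, Cd163, Mrc1, Adgre1, C1qa and C1qb. Capitals mark GAGGAA or its reverse complement, a purine-rich core of the kind that PU.1 binds, and it was the only motif searched, on both strands.
C1qa, chr5:154419934-154420183, minus strand: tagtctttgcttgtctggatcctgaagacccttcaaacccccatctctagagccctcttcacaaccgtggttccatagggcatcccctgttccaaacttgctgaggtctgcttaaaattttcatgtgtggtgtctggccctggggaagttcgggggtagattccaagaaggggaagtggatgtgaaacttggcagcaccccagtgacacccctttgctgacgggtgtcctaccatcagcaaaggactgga
C1qb, chr5:154407828-154408077, minus strand: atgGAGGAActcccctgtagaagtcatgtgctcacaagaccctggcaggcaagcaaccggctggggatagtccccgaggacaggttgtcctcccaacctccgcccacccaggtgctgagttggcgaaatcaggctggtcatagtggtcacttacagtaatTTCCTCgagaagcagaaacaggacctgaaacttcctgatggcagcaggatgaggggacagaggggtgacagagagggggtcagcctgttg
Cd68, chr10:54882442-54882691, minus strand: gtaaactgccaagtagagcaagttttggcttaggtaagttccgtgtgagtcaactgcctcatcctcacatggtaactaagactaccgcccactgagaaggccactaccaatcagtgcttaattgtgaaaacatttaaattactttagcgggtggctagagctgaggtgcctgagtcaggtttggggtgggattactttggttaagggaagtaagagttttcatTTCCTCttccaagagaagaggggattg
The 6 letters occurred in 5 of the 7 windows and in 23.3% of all 33469 promoter windows of the same length. C1qb held 2 matches, Cd68 held 1 and C1qa held 0. A match is a stretch of letters in a window and nothing about binding was measured.

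Every level below is a log2 signal relative to the 75th percentile of its own array, so 0 is a probe at that percentile, and levels of different genes are not compared because probes differ in brightness. Differences are given as log2 ± SE from limma, fitted to all 25 arrays, with p-values adjusted over the 12343 genes at a threshold of 0.05. A gene is said to have risen or fallen when it passed that threshold. With bulk tissue, fewer macrophages and less RNA per macrophage cannot be told apart. Markers of the labelled tissue were present: all 6 squamous epithelium markers that were tested, among them Krt5, Krt13 and Ivl, were above background on 25 of 25 arrays. So were all 8 fibroblast, 7 mast cell, 7 muscle and 5 endothelial markers tested, so the RNA was not from epithelial cells alone. The mast cell marker Kit, also on the array, was well above background on 2 of 25 arrays and was too dim to test. Between 70.6% and 79.8% of spots were well above background per array.

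A few rats, 3 of the 25, were lowest in the macrophage genes. Gamma-enriched rat 3 was the lowest of its group in 10 of 10 genes and alpha rat 4 was the lowest of its group in 10 of 10, while NMBA rat 5 was the lowest of its group in 8 of 10. As the mean over the 10 genes, each taken relative to its own mean over all rats, they stood at −1.74, −0.98 and −0.54. The other 22 rats lay between −0.48 and 0.60, so the first 2 were well apart from the rest and NMBA rat 5 was not. In NMBA rat 5 the deficit did not extend to Aif1, which at 2.99 was at its group's median. Calls and medians that turn on these rats are given with and without them. Leaving the 3 out is a choice made on the genes' own levels after the data were seen, so the values without them describe the remaining rats and are no independent test.

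The complement gene C1qa and the calcium-binding protein gene Aif1 fell in gamma-enriched rats relative to NMBA rats, and they were the only 2 of the 10 genes to pass in any of the 10 comparisons between groups with the brightest probe of each gene. Aif1, also called Iba1, encodes an actin-bundling protein widely used to stain macrophages and microglia. Its log2 signal was 1.72, 1.54, 1.31, 2.13 and 2.02 in gamma-enriched rats 1 to 5, and 3.26, 3.06, 2.38, 2.12 and 2.99 in NMBA rats 1 to 5. The groups touched through NMBA rat 4 alone, which lay just under gamma-enriched rat 4. The difference was −1.02 ± 0.25 (adjusted p = 0.0152 by limma), a 2.02-fold lower signal.

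C1qa encodes the A chain of C1q. It stood at 2.76, 2.99, 1.8, 3.29 and 3.09 in gamma-enriched rats 1 to 5, and at 3.95, 3.77, 4.11, 3.34 and 3.25 in NMBA rats 1 to 5. Only gamma-enriched rat 4 reached above the lowest NMBA rat, and gamma-enriched rat 3 was far below the rest. C1qa differed by −0.90 ± 0.28 (adjusted p = 0.0467), or 1.86-fold lower. The call is close to the threshold: it was lost with quantile normalization (−0.55) and on leaving out any of 7 of the 10 rats of the 2 groups, at adjusted p between 0.0538 and 0.118. Without gamma-enriched rat 3 the C1qa difference was −0.65 (adjusted p = 0.0953), and without NMBA rat 5 it was −1.01 (adjusted p = 0.0427).

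The remaining complement chains lay on the same side of 0. C1qc stood at 2.38, 2.60, 1.39, 2.92 and 2.84 in gamma-enriched rats, and at 3.63, 3.34, 3.51, 2.90 and 2.96 in NMBA rats, with a difference of −0.84 ± 0.28 (adjusted p = 0.0632). C1qb stood at 2.42, 2.57, 1.76, 2.93 and 2.76 in gamma-enriched rats, and at 3.10, 2.92, 3.32, 2.79 and 2.31 in NMBA rats, with a difference of −0.40 ± 0.22 (adjusted p = 0.244). Both groups overlapped in C1qc and C1qb, in C1qb over most of the range. Cd68, a lysosomal membrane glycoprotein of phagocytes, stood at −1.69, −0.78, −2.24, −0.69 and −0.93 in gamma-enriched rats, and at −0.28, −0.59, −0.10, −0.82 and −1.27 in NMBA rats. Its difference was −0.66 ± 0.29 (adjusted p = 0.154), and neither Cd68 nor the 2 chains passed.

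None of the receptor genes of the lineage passed between gamma-enriched and NMBA rats, and their spread between rats was wide. Msr1 and Cd163, scavenger receptors for modified lipoproteins and for haptoglobin bound to haemoglobin, differed by 0.03 ± 0.46 and −0.46 ± 0.49. Mrc1, the mannose receptor, differed by −0.06 ± 0.51, and Adgre1, whose mouse protein is the marker F4/80, by −0.23 ± 0.49. Csf1r, the receptor for the growth factors Csf1 and Il34, differed by −0.32 ± 0.40. The 95% intervals of these 5 ran from −1.47 at the lowest (Cd163) to 0.99 at the highest (Mrc1), so a fall of 1 log2 unit lies inside the interval of most of them and a rise of that size inside none.

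In all, 2 of 10 macrophage genes fell and 0 rose in gamma-enriched against NMBA rats, while 7.36% of all genes tested fell and 1.59% rose, so the count concerns these 2 genes and not the 10 as a group. Differences were below 0 in 9 of 10, as they were in 61% of all genes. Their median difference was −0.43, beside −0.10 over all genes, a shift of all genes that was −0.04 with quantile normalization. That median rested on gamma-enriched rat 3: without it the median of the 10 was −0.09 and 5 of 10 were below 0, while without NMBA rat 5 it was −0.66. Relative to that shift Aif1 and C1qa remain lower. These rats share no slide: all gamma-enriched arrays were on slide 2, and NMBA arrays were on slides 3 and 4, tied only through Control rat 1 on slide 2. With slide as a fixed block neither gene passed (Aif1 −0.75 ± 0.56, C1qa −0.62 ± 0.58, adjusted p = 0.998 each). There 10 of 10 genes were below 0 with a median of −0.75, beside 0.02 over all genes. These values rest on the level of Control rat 1, and NMBA rat 5, alone on slide 4, adds nothing to them. As the genes vary together, the 10 are not separate evidence. In that fit 1 gene of all those tested was called in gamma-enriched against NMBA rats and 0 were called lower, and the same counts held for delta and for alpha rats. Every fall against NMBA given below for a tocopherol group is therefore lost with slide as a fixed block.

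The pair of probes for Csf1r and for Aif1 did not give the same answer. For Csf1r the brighter probe was used above, and the dimmer one differed by −0.78 ± 0.20 between gamma-enriched and NMBA rats (adjusted p = 0.0178), which is past the threshold, where the brighter gave −0.32 (adjusted p = 0.645). The 2 Csf1r probes correlated over the 25 rats at r = 0.458. For Aif1 the dimmer probe gave −0.70 ± 0.29 (adjusted p = 0.124), which did not pass, and its r with the brighter probe was 0.689. Which probe reports the transcripts better was not tested.

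**Figure D1:**
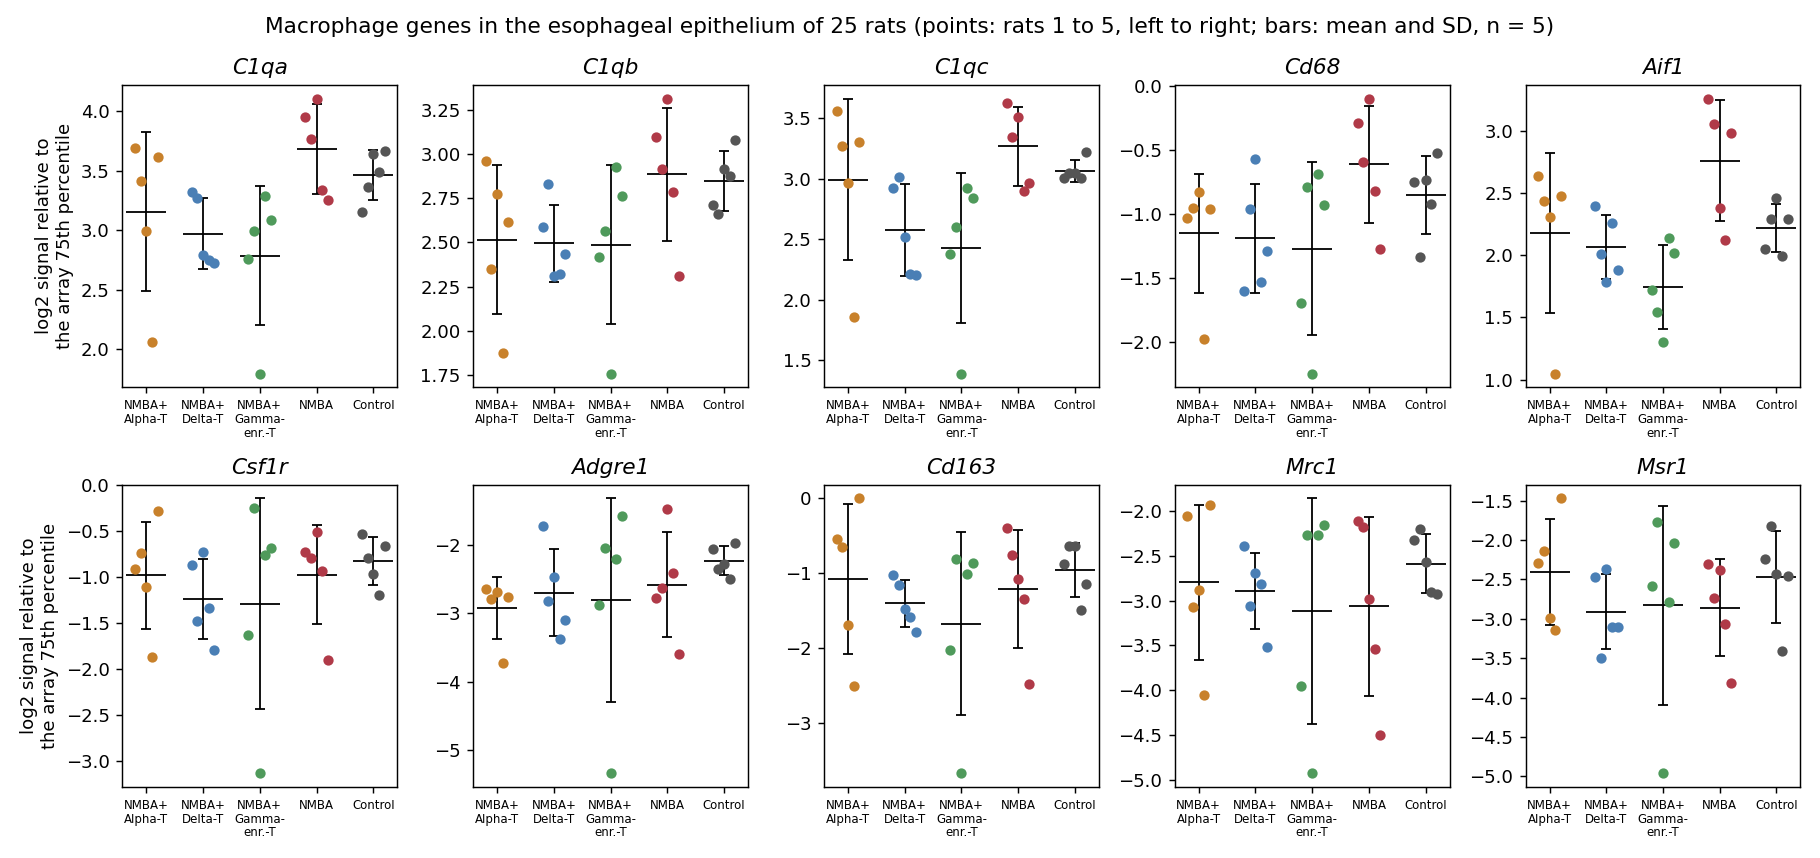
Log2 signal relative to the array's 75th percentile (y axis, own scale per gene) for each macrophage gene in the 5 groups, with 1 point per rat and bars for the mean and SD (n = 5). Gamma-enriched rat 3 and alpha rat 4 lie lowest in their groups in all 10 panels, and the Aif1 and C1qa panels show most NMBA rats above the gamma-enriched rats.

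NMBA against Control asks whether the carcinogen alone changed macrophage genes, and none passed: 0 of 10 rose and 0 fell, beside 1.3% and 0.243% of all genes. Differences were below 0 in 5 of the 10, against 42.6% of all genes, and their median was −0.05 against 0.05 over all genes. At an unadjusted p under 0.05 only Aif1 was higher, as were 8.39% of all genes. It stood at 3.26, 3.06, 2.38, 2.12 and 2.99 in NMBA rats 1 to 5, and at 2.05, 2.29, 2.46, 1.99 and 2.29 in Control rats 1 to 5, and 3 of 5 NMBA rats were above every Control rat. That difference was 0.54 ± 0.26 (adjusted p = 0.375).

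The C1q genes were nearly level between NMBA and Control rats. C1qa differed by 0.22 ± 0.28, C1qb by 0.04 ± 0.22 and C1qc by 0.20 ± 0.28, none past the test. Receptor genes lay below 0: Mrc1 at −0.48 ± 0.51, Msr1 at −0.39 ± 0.46, Adgre1 at −0.35 ± 0.49, Cd163 at −0.26 ± 0.49 and Csf1r at −0.14 ± 0.40. The dimmer Csf1r probe lay on the other side, at 0.46 ± 0.20 (adjusted p = 0.338). Much of that rested on NMBA rat 5, the only NMBA array on slide 4. Within slide 3, which holds NMBA rats 1 to 4 and Control rats 2 to 5, Mrc1 differed by −0.05, Adgre1 by −0.05, Msr1 by −0.10, Cd163 by 0.08 and Csf1r by 0.16. Aif1 was 0.44 and Cd68 was 0.43 on that slide, and 0 of the 10 genes passed there.

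Levels of the NMBA rats in the receptor genes were spread widely. Mrc1 stood at −2.10, −2.18, −2.98, −3.54 and −4.50 in NMBA rats 1 to 5, and at −2.32, −2.20, −2.57, −2.90 and −2.93 in Control rats 1 to 5. Cd163 stood at −0.40, −0.77, −1.08, −1.35 and −2.48 in NMBA rats, and at −0.88, −0.64, −0.64, −1.49 and −1.15 in Control rats. In both genes the NMBA rats ran from above the Control rats to below them. For Cd163 the SD was 0.79 in NMBA rats and 0.36 in Control rats.

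Alpha-tocopherol and delta-tocopherol each left the macrophage genes without a call against NMBA: 0 of 10 rose and 0 of 10 fell in both, while 2.52% of all genes fell and 1.3% rose in alpha rats, and 2.02% fell and 0.47% rose in delta rats. At an unadjusted p under 0.05, 1 of the 10 was lower in alpha rats (Aif1), beside 11.1% of all genes, and 3 were lower in delta rats (Aif1, C1qa and C1qc), beside 14.3%. Differences were below 0 in 7 of 10 genes in alpha rats and 9 of 10 in delta rats, against 53.4% and 56.5% of all genes. Medians of the 10 differences were −0.31 for alpha and −0.33 for delta, beside −0.03 and −0.05 over all genes. Without alpha rat 4 the alpha median was −0.06 with 5 of 10 below 0, and without NMBA rat 5 the delta median was −0.52. With slide as a fixed block the alpha median was −0.81, with 10 of 10 below 0, beside a median of 0.12 over all genes. That fit again reaches NMBA rats through Control rat 1 alone. In delta rats C1qa stood at 3.32, 3.27, 2.79, 2.76 and 2.72, and 4 of the 5 NMBA rats were above all of them, with a difference of −0.71 ± 0.28 (adjusted p = 0.153). Differences of similar size without a call were found in delta rats for C1qc (−0.69 ± 0.28), Aif1 (−0.69 ± 0.26) and Cd68 (−0.58 ± 0.29).

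Without the 3 lowest rats, the C1q genes stood under the threshold in delta rats against NMBA: C1qa at −0.82 ± 0.18 (adjusted p = 0.0176), C1qc at −0.77 ± 0.18 (adjusted p = 0.0227) and C1qb at −0.53 ± 0.15 (adjusted p = 0.0444). These p-values are no test, because the rats were left out for low levels of the macrophage genes, C1q included. The omission took out no delta rat, but it took out the NMBA rat lowest in C1qa and C1qb. With all rats C1qa stood at −0.71 ± 0.28, so the omission widened that difference and lowered its SE. In gamma-enriched rats against NMBA the same omission left Aif1 at −0.85 ± 0.21 and C1qa at −0.76 ± 0.20, both still under the threshold. It added C1qc at −0.66 ± 0.19 (adjusted p = 0.0364), with the same limit. Calls over all genes in delta against NMBA rats became 751, against 307 with all rats. Delta arrays were on slides 1 and 2 and share no slide with NMBA arrays, so in all 3 tocopherol comparisons slide and treatment cannot be told apart except through Control rat 1.

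Alpha rats differed from NMBA rats in both directions. Aif1 was 2.64, 2.43, 2.31, 1.05 and 2.48 in alpha rats 1 to 5, with a difference of −0.58 ± 0.26 (adjusted p = 0.220). C1qa was 3.70, 3.42, 3.0, 2.06 and 3.62, with a difference of −0.53 ± 0.28 (adjusted p = 0.324). In both genes alpha rat 4 was far below the other 4 rats. Msr1 (0.46 ± 0.46), Mrc1 (0.26 ± 0.51) and Cd163 (0.14 ± 0.49) lay above 0, none past the test.

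**Figure D2:**
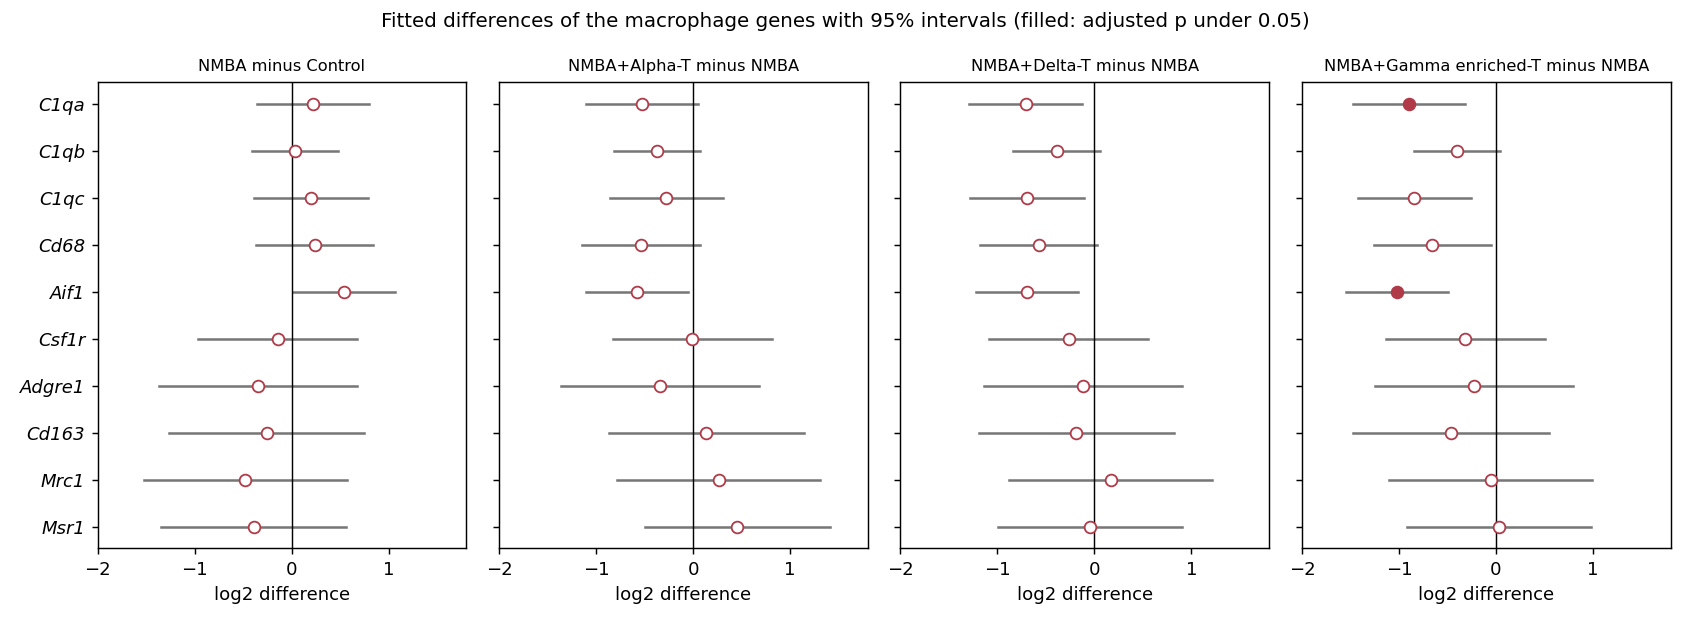
Fitted log2 differences (x axis) of the macrophage genes, with 95% intervals, for NMBA minus Control and for each tocopherol group minus NMBA. Filled points passed the adjusted threshold, which only Aif1 (−1.02) and C1qa (−0.90) did, both in the gamma-enriched panel.

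Against Control, the tocopherol groups also gave no call among the 10 genes. Of all genes, 0.632% were called in gamma-enriched, 0.194% in delta and 0.818% in alpha rats against Control. At an unadjusted p under 0.05, C1qa and C1qc were lower in gamma-enriched rats, as were 12.2% of all genes, and 0 of the 10 in delta or alpha rats. C1qc did not overlap between gamma-enriched and Control rats, every gamma-enriched rat being lower, as in 1.63% of all genes, and Adgre1 did not overlap between alpha and Control rats, every alpha rat being lower, as in 1.27%. C1qc differed there by −0.64 ± 0.28 (adjusted p = 0.231) and Adgre1 by −0.69 ± 0.49 (adjusted p = 0.585). Fitted differences from Control were below 0 in 10 of 10 genes in gamma-enriched rats and 10 of 10 in delta rats, against 57.8% and 53.9% of all genes, and in 9 of 10 in alpha rats, against 49.1%. C1qa was −0.68 ± 0.28 in gamma-enriched rats (adjusted p = 0.205) and −0.49 ± 0.28 in delta rats (adjusted p = 0.550). The 3 comparisons share the Control rats. Without the 3 lowest rats the counts below 0 became 8, 10 and 4. Alpha rats share no slide with Control rats, and gamma-enriched and delta rats share slide 2 with Control rat 1 alone. Slide and treatment are thus hard to tell apart here too, also for the genes that did not overlap. With slide as a fixed block those counts were 10, 9 and 9, and 4 of all genes were called in each comparison.

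Tocopherols set against each other, which differ in the methyl groups of the chromanol ring, gave no call in the 10 genes either. Delta minus alpha called 0 of all genes by limma, with 1.81% higher and 2.82% lower at an unadjusted p under 0.05. Gamma-enriched minus delta called 0, with 1.39% higher and 2.69% lower at that level. Gamma-enriched minus alpha called 1.62% of all genes and 0 of the 10. All alpha arrays were on slide 1 and all gamma-enriched arrays on slide 2, tied only through delta rats. With slide as a fixed block 0 of all genes were called in gamma-enriched minus alpha. The median of the 10 was then 0.08 with 3 below 0, against −0.35 with 9 below 0 in the reported fit. The widest differences of that pair were Cd163 at −0.60 ± 0.49 (adjusted p = 0.559) and C1qc at −0.57 ± 0.28 (adjusted p = 0.357). Without alpha rat 4, Aif1 reached −0.72 ± 0.21 in that pair, at the threshold (adjusted p = 0.05). A test of any difference among the 5 groups called 7% of all genes and 0 of the 10, the lowest adjusted p being 0.0948 for Aif1.

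Means of the groups kept 1 order in several genes. In C1qa, C1qb, C1qc, Cd68 and Aif1 the order of the means from high to low was NMBA, Control, alpha, delta and gamma-enriched. The medians did not keep it. Gamma-enriched had a higher median than delta in C1qa (2.992 against 2.794), C1qb (2.566 against 2.434), C1qc (2.604 against 2.515) and Cd68 (−0.929 against −1.283). In Aif1 the alpha median (2.434) was above that of Control (2.288). Neighbours in that order differed by less than the larger of their SDs, except Aif1 between NMBA and Control. Aif1 averaged 2.18 ± 0.64 in alpha, 2.07 ± 0.26 in delta, 1.74 ± 0.34 in gamma-enriched, 2.76 ± 0.48 in NMBA and 2.22 ± 0.19 in Control rats (SD, n = 5 each). In the receptor genes Csf1r, Cd163, Mrc1 and Adgre1, Control was highest, except that the dimmer Csf1r probe was highest in NMBA rats. Msr1 was highest in alpha rats and lowest in delta rats, with means of −2.41 ± 0.68 and −2.91 ± 0.47.

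From rat to rat, the macrophage genes rose and fell together. Over the 25 rats, Pearson's r between the 45 pairs of genes ran from 0.264 to 0.962 with a median of 0.713, and 42 pairs had an adjusted permutation p under 0.05 over the 45. The permutations moved rats freely across groups and slides. Pairs of other genes were not computed for comparison, so the count is not shown to be particular to macrophage genes. C1qa and C1qc were closest (r = 0.962, rho = 0.931, permutation p = 1e-05 for both, the smallest that 100000 permutations can give, adjusted to 3.75e-05 and 0.000112), and r was 0.926 without the 2 rats farthest from the C1qa median. Next among the C1q genes were C1qa and C1qb at r = 0.889 (rho = 0.809, 0.783 without the 2 rats), and Cd68 and C1qb stood at 0.829 (rho = 0.682, 0.691 without the 2 rats).

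Receptor genes were close in some pairs as well, without standing apart from the C1q genes. Cd163 was closer to C1qc (0.807) and C1qa (0.787) than to Adgre1 (0.739), and Adgre1 closer to C1qb (0.752) than to Mrc1 (0.713). Whether pairs of receptor genes differ from the other pairs was not tested. Cd163 and Mrc1 correlated at r = 0.911 (rho = 0.833, 0.854 without 2 rats), Csf1r and Cd163 at 0.898 (rho = 0.695, 0.783 without 2 rats) and Csf1r and Msr1 at 0.888 (rho = 0.834, 0.758 without 2 rats), each r with a permutation p of 1e-05, adjusted to 3.75e-05. The 3 pairs that missed the threshold were Aif1 with Msr1 (0.264), Adgre1 (0.278) and Csf1r (0.393), while Aif1 with Cd163 (0.543, adjusted permutation p = 0.0068, 0.257 without 2 rats) and with Mrc1 (0.431, adjusted permutation p = 0.0343) passed. Aif1 followed C1qa at 0.795. With the 2 farthest rats left out of each pair the median over pairs was 0.568, with a lowest r of 0.098.

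The relations held unevenly by slide. Median r over the 45 pairs was 0.655 on slide 1, 0.927 on slide 2 and 0.469 on slide 3, with 8 rats on each. Slide 2 holds gamma-enriched rat 3. Taken within groups, as deviations from each group's mean, the median was 0.748. C1qa and C1qc kept r between 0.920 and 0.977 on the 3 slides, whereas Csf1r and Cd163 stood at 0.345 on slide 3. On that slide Adgre1 was negative with Mrc1 (−0.458) and with Cd163 (−0.330).

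**Figure D3:**
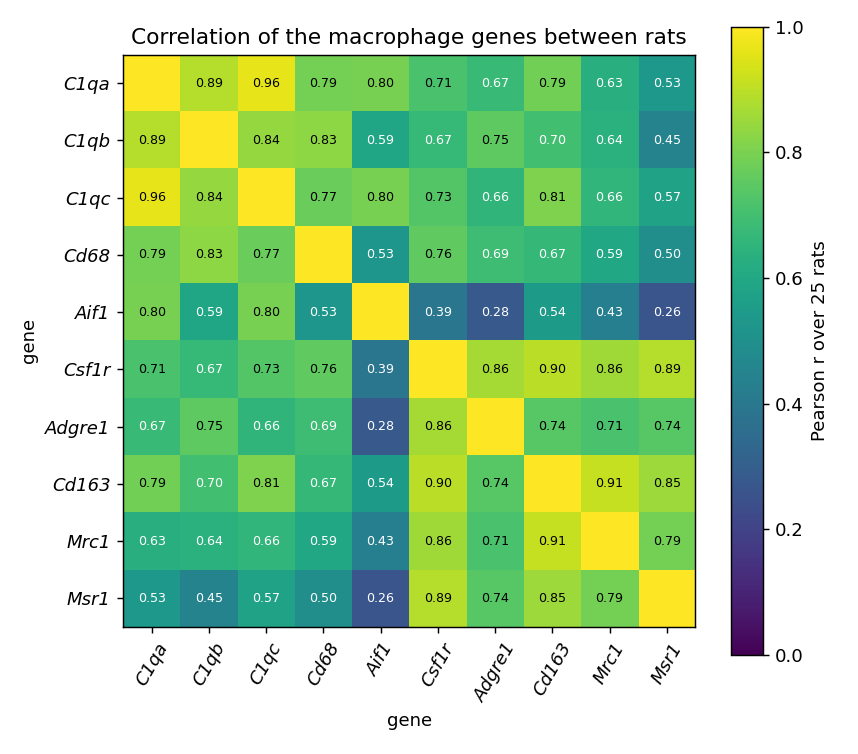
Pearson's r over the 25 rats between each pair of macrophage genes (both axes list the genes, colour and printed value give r). The C1q genes reach 0.962 among themselves, the receptor genes reach 0.911, and Aif1 holds the lowest values, down to 0.264.

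Markers of stromal cells varied with the macrophage genes. Over 10 marker lists and 10 genes, 100 relations were computed, of which 56 had an adjusted permutation p under 0.05. The same relations were not computed for other genes, so that count is not shown to be particular to macrophage genes either. The mean of 5 endothelial markers correlated with the macrophage genes at a median r of 0.789 (10 of 10 genes past the threshold), that of 8 fibroblast markers at 0.75 (9 of 10) and that of 7 mast cell markers at 0.744 (10 of 10). Squamous epithelium markers had a median r of −0.096, with 1 of 10 past the threshold. Closest was Cd163 with the fibroblast markers (r = 0.920, rho = 0.840, adjusted permutation p = 8.33e-05, 0.846 without 2 rats).

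The 3 rats lowest in the macrophage genes were low in stroma too. Fibroblast markers stood at −1.53 in gamma-enriched rat 3, −0.53 in alpha rat 4 and −1.02 in NMBA rat 5, relative to their mean over all rats, and endothelial markers at −1.25, −0.87 and −0.51. Squamous epithelium markers stood at 0.29, −0.07 and 0.33 in the same rats. Their arrays also had the 3 lowest medians over all probes in the deposited log2 values, at −3.33, −3.27 and −3.23. The next lowest was −3.22, in delta rat 2. How far this array-wide level enters the macrophage and stromal levels was not tested. By group, fibroblast markers ranged from −1.53 to 0.16 in gamma-enriched rats, from −1.02 to 0.21 in NMBA rats and from 0.27 to 0.68 in Control rats. The part of this stromal variation in the differences of the macrophage genes was not tested. On slide 3 the relations with the fibroblast markers differed among the genes, some with the opposite sign: r was 0.498 for Cd163, 0.564 for Mrc1, −0.319 for C1qa, −0.459 for C1qb and −0.601 for Cd68.

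Aif1 also varied with markers of other leukocytes, and not with those of T and NK cells alone. Its r was 0.813 with dendritic and Langerhans cell markers (3 tested) and 0.752 with B cell and plasma cell markers (4 tested). Its r was 0.784 with T and NK cell markers (rho = 0.699, adjusted permutation p = 8.33e-05, 0.734 without 2 rats) and 0.400 with fibroblast markers, which missed the threshold (adjusted permutation p = 0.0813), though its rho of 0.523 passed (adjusted permutation p = 0.0206). With mast cell and endothelial markers Aif1 stood at 0.654 and 0.567, both past the threshold (adjusted permutation p = 0.00142 and 0.0068). Whether its relations with these lists differ was not tested. C1qa correlated with T and NK cell markers at 0.657 and C1qc at 0.641, whereas Mrc1 stood at 0.162 and Msr1 at 0.142. With mast cell, dendritic and B cell markers C1qa stood higher, at 0.856, 0.812 and 0.719. T and NK cell markers themselves moved with the groups: 12 of the 14 fell in gamma-enriched against NMBA rats, beside 7.36% of all genes, though none with slide as a fixed block, and their mean ranged from −1.22 to −0.04 in gamma-enriched rats and from 0.14 to 1.79 in NMBA rats, with no overlap. Whether T cells carry any of the Aif1 or C1qa difference was not tested.

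**Figure D4:**
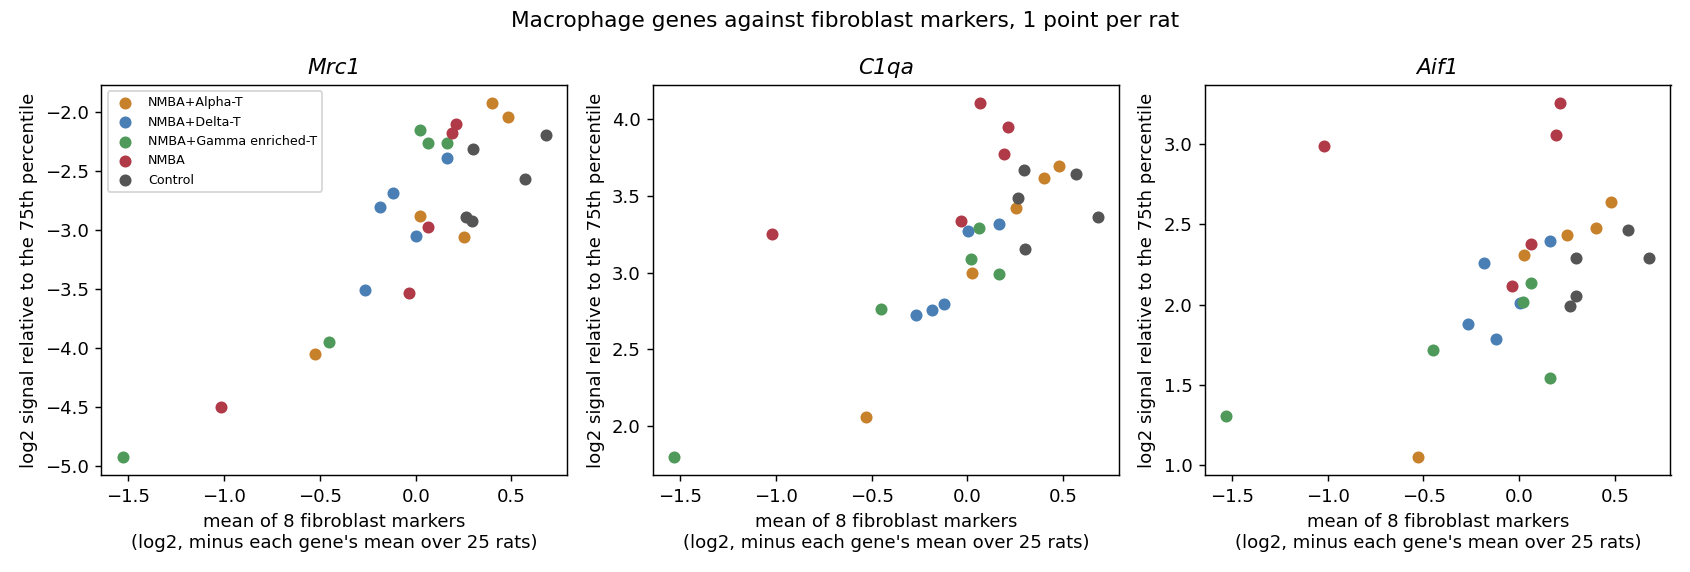
Signals of Mrc1, C1qa and Aif1 (y axes, log2 relative to the array's 75th percentile) against the mean of 8 fibroblast markers (x axes, log2 relative to their mean over the 25 rats), with 1 point per rat coloured by group. Mrc1 runs along the fibroblast markers (r = 0.871), C1qa does so less closely (r = 0.720), and in the Aif1 panel (r = 0.400) NMBA rat 5 lies high at the left while 3 NMBA rats lie above all others.

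Outside the 10, the genes most like their mean over the 25 rats were Itgam (r = 0.965), the myeloid integrin chain CD11b, then Ggt5 (0.962), P2ry12 (0.958), Pltp (0.957) and Folr2 (0.956), a folate receptor found on resident macrophages, out of 12320 genes ranked. Single genes had other partners: Aif1 was most like Clec12a (r = 0.960), a lectin receptor of myeloid cells, C1qc like Fcer1g (0.968), the Fc receptor gamma chain, Mrc1 like F13a1 (0.927), and Cd163 like Srpx (0.951). C1qa was most like C1qc. These likenesses are a description, and the arrays share slides and normalization.

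A wider list of 42 monocyte and macrophage genes, of which 38 were tested, gave a few calls. In gamma-enriched against NMBA rats 6 fell and 0 rose, beside 7.36% and 1.59% of all genes, with a median of −0.74 against −0.10 over all genes. Spi1, which encodes PU.1, fell by 1.1 ± 0.20 (adjusted p = 0.00364), Laptm5, a lysosomal protein gene of blood cells, fell by 1.31 ± 0.26 (adjusted p = 0.00419), and neither overlapped between the groups. Fcgr3a, an activating Fc receptor shared with NK cells, differed by −1.61 ± 0.44 (adjusted p = 0.0231), and Cd5l, a secreted macrophage protein, by −1.33 ± 0.32 (adjusted p = 0.0123). Cd5l was well above background on 3 of 5 gamma-enriched arrays and turned positive, at 0.74, with slide as a fixed block.

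Spi1 and Laptm5 also fell in delta rats, at −0.99 ± 0.20 (adjusted p = 0.0196) and −1.13 ± 0.26 (adjusted p = 0.0297), 2 of 4 genes of the wider list to do so, beside 2.02% of all genes. The other two were Fcgr3a (−1.64 ± 0.44) and the scavenger receptor gene Marco, which passed (adjusted p = 0.0476) but was well above background on 0 of 5 delta arrays and 2 of 5 NMBA arrays, so no fold is given. In alpha rats 3 fell, beside 2.52% of all genes, namely Laptm5 (−1.01 ± 0.26), Fcgr3a (−1.55 ± 0.44) and Gpnmb (−0.56 ± 0.15), a glycoprotein of lipid-laden macrophages. In NMBA against Control rats only Fcgr3a rose, where 1.3% of all genes did, by 2.60 ± 0.44 (adjusted p = 0.00214), with every NMBA rat above every Control rat. In the same comparison 10 of 14 T and NK cell markers rose, with a median of 1.56, and their part in the Fcgr3a difference was not tested. With slide as a fixed block no gene named in these 2 paragraphs passed in a tocopherol comparison, Spi1 standing at −0.18 in gamma-enriched rats.

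Signals that recruit or feed macrophages included several that passed. Of 11 tested growth factors and recruiting chemokines, 3 rose in NMBA against Control rats, beside 1.3% of all genes: Ccl12 (2.50 ± 0.61), Ccl4 (1.78 ± 0.40) and Ccl5 (1.76 ± 0.42). Against NMBA, 4 of the 11 fell in gamma-enriched rats, beside 7.36% of all genes, with Ccl12 at −2.76 ± 0.61, Ccl5 at −1.71 ± 0.42, Ccl7 at −1.66 ± 0.47 and Ccl4 at −1.50 ± 0.40. In delta rats 2 fell and in alpha rats 2, Ccl12 and Ccl5 in both, beside 2.02% and 2.52% of all genes. Medians of the 11 were −1.09 in gamma-enriched, −0.60 in delta and −0.47 in alpha rats, beside −0.10, −0.05 and −0.03 over all genes. With slide as a fixed block Ccl12 stood at −2.70 in gamma-enriched rats (adjusted p = 0.998), and no gene of the list was called lower in a tocopherol group. Ccl12 was well above background on 3 of 5 gamma-enriched, 2 of 5 delta, 1 of 5 alpha and 3 of 5 Control arrays. The size of its differences thus rests in part on signals near background. Csf1 and Il34, the ligands of Csf1r, passed in none of these 4 comparisons. Csf1 stood at −0.88 ± 0.35 (adjusted p = 0.115) and Il34 at −0.89 ± 0.36 (adjusted p = 0.120) in gamma-enriched against NMBA rats.

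Genes of classical activation, the interferon-driven state of macrophages, were also among those that moved, though other cells express them too. In NMBA rats 4 of 14 rose against Control, beside 1.3% of all genes, among them the chemokines Cxcl10, Cxcl9 and Cxcl11. Against NMBA, 9 fell in gamma-enriched, 4 in delta and 6 in alpha rats, beside 7.36%, 2.02% and 2.52% of all genes. None of these falls passed with slide as a fixed block. Il1b, an inflammatory cytokine, fell by 1.97 ± 0.43 in gamma-enriched rats (adjusted p = 0.00738). Among 14 genes of alternative activation, the state linked to repair, Ccl22 alone rose in NMBA against Control rats, by 1.60 ± 0.23, beside 1.3% of all genes. Ccl17 alone fell in gamma-enriched against NMBA rats, by 1.54 ± 0.41, beside 7.36% of all genes, so that count is no result about the list. In alpha against NMBA rats 1 of the 14 fell, beside 2.52% of all genes. In gamma-enriched against Control rats 1 rose, where 0.632% of all genes were called in either direction.

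In the classical complement pathway beyond C1q, 13 of 16 genes were tested. In gamma-enriched against NMBA rats 1 of the 13 fell, beside 7.36% of all genes, so the count is no result about the pathway. The gene was C2 (−1.20 ± 0.37, adjusted p = 0.0446), the protease that C1 cleaves. With slide as a fixed block C2 stood at −1.23 (adjusted p = 0.998). None passed in delta or alpha rats against NMBA, where C2 stood at −0.94 ± 0.37 and −0.79 ± 0.37, or in NMBA against Control. Of 11 scavenger and phagocytic receptors beyond the 10 genes, 0 passed in gamma-enriched or alpha rats against NMBA or in NMBA against Control. Marco alone fell in delta rats, beside 2.02% of all genes.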

How the data were processed

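Total RNA was labelled with Cy3 and hybridised to 1-colour Agilent arrays, per the labels. The deposited scanner files hold fluorescence intensity per spot, which per the file headers was background-subtracted and detrended by the scanner software (Feature Extraction 11.5.1.1, or 10.7 per the submitters' processing notes). The authors' deposited value table holds log2 values that follow each array's log2 processed signal, centred near its 75th percentile, and served as an alternative.

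From the scanner files, spots called outliers were dropped, log2 processed signals were averaged per probe and each array's 75th percentile was subtracted. Probes well above background on at least 5 arrays were kept, the brightest per gene. Of 30367 probes, 18355 matched 1 gene symbol. Names came from RefSeq accessions in a table of GRCr8, and the array was designed on rn4. limma 3.58.1 was fitted to 25 arrays (20 residual degrees of freedom) with 10 two-sided contrasts and Benjamini-Hochberg adjustment over 12343 genes. The fit was tested on simulated data. Correlations used 100000 permutations.

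All members were named, with up to 4 called genes per list and contrast, and, where a list had none, at most 2 of lowest p. Members and lists were chosen with earlier results of these data known. Rat numbers do not pair animals: over 50 same-number pairs of arrays, deviations from group means correlated between −0.584 and 0.529 (median −0.0526). The normexp alternative used the median spot signal, since the files hold no mean signal. No pair of arrays was identical (0 pairs), but nothing says how rats were housed or processed, so p-values measure the spread between these 25 rats. The number of arrays limits the precision.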

Additional observations from a re-analysis of the deposited data

Results flagged for a closer look

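In 4 of 50 combinations of a macrophage gene and a group, 1 rat lay outside the others by Dixon's 95% limit for groups of 5 rats (gap over range above 0.71). Chance flags about 1 in 20 groups, and the genes vary together, so these are not separate events. Of these, 3 were alpha rat 4, where Adgre1 stood at −3.72 (gap over range 0.865), Cd68 at −1.97 (0.828) and Aif1 at 1.05 (0.794). The other was Control rat 5, whose C1qc of 3.22 lay above a tight group (0.788). In 0 of the 10 genes did every rat of 1 tocopherol group move opposite to every rat of another.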

How the results depend on the processing

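The count of macrophage genes called in gamma-enriched against NMBA rats was 2 in the reported fit. It was 1 with quantile normalization, 1 with rat number as a replicate block, 1 with only those groups fitted, 0 with slide as a fixed block, and 0 to 3 on leaving out each rat in turn. It was 3 without a filter on dim probes, with slide as a random block and without the 3 lowest rats. The random-block fit had a negative consensus correlation (−0.0311) and a lower SE (C1qa 0.262, against 0.280 in the reported fit). Its added call therefore does not show that the falls hold once slide is allowed for. C1qa was the gene lost under the block on rat number (−0.90, adjusted p = 0.0676), and Aif1 was also lost without NMBA rat 1 (−0.89, adjusted p = 0.0565). In delta against NMBA rats the count moved from 0 to 3 without the 3 lowest rats, an alternative chosen after seeing the data under which calls over all genes became 751. The other probe of Csf1r and Aif1 was also tried after seeing the data. For any difference among the 5 groups it moved from 0 to 1 with slide as a random block, to 2 without the 3 rats, and over 0 to 2 on leaving out rats. In gamma-enriched against alpha rats it was 0 to 1. In all other comparisons the count was 0 under every alternative run. Of 2230 recomputed differences of the 10 genes, 169 changed sign, and 0 of these were calls. Signs turned for 3 called genes with slide as a fixed block: Cd5l (0.74) and Zbtb46 (0.084) in gamma-enriched and Krt4 (0.01) in delta rats against NMBA. The cause was not tested.

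Over all genes, the counts reported (909 lower and 196 higher for gamma-enriched against NMBA, 307 for delta and 471 for alpha against NMBA, 191 for NMBA against Control) became 1, 1, 1 and 62 with slide as a fixed block, 3321, 961, 2141 and 188 without a filter on dim probes, 1805, 742, 800 and 189 with slide as a random block (consensus correlation −0.0311), and 890, 71, 114 and 95 with only the groups compared. Leaving out each rat in turn gave 546 to 1588 for gamma-enriched, 13 to 566 for delta, 191 to 454 for alpha and 96 to 297 for NMBA against Control. With rat number as a block the delta count was 161 and the alpha count 310. Of all called genes in gamma-enriched against NMBA rats, 82.3% were lower, and 72.5% with quantile normalization.

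Limits: each group has 5 rats, the 25 arrays lie on 4 slides, and no tocopherol group shares a slide with NMBA. Of the Control arrays, only Control rat 1 shares a slide with a tocopherol group.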
